A study of Mus musculus with 6 samples.

Results

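The Ca2+/calmodulin-dependent protein kinase (CaM kinase) and CREB pathway was followed in mouse hippocampus through 10 genes taken by their symbols. They are 6 kinases (Camk2a, Camk2b, Camk2d, Camk2g, Camk4 and Camk1) and 4 regulators of CREB-dependent transcription (Creb1, Crem, Crtc1 and Sik1). Each of the 10 had 1 row among the 16060 rows of the table, and all 10 were among the 13321 genes that passed a filter on low values and were tested. The libraries came from adult male C57BL/6 mice of no stated mutant genotype. The 3 mice of the Control group were injected intraperitoneally with saline, and the 3 mice of the MA group with methamphetamine (MA) at 5 mg/kg in week 1, 10 mg/kg in week 2 and 15 mg/kg in week 3. Both groups were tested for anxiety-like behavior on day 22 and killed directly afterwards, so the RNA of both reflects animals that had just been handled and tested. MA and Control below mean the libraries so labelled. No gene in the table checks independently which mice received MA, so every direction rests on these labels and would turn if they were exchanged. The comparison asks whether the messages of the kinases and those of the CREB regulators differed between MA and Control libraries.

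When calcium enters a neuron it binds calmodulin, and calmodulin switches on the CaM kinases. CaMKII, built from the products of the 4 Camk2 genes, is among the most abundant proteins of excitatory synapses and is needed for long-term potentiation in the hippocampus. CaMKIV and CaMKI are activated by an upstream kinase, and CaMKIV acts in the nucleus, where it phosphorylates the transcription factor CREB. CREB binds cAMP response elements (CREs) and drives genes such as Fos, Nr4a1 and Arc. It has help from coactivators of the Crtc family, which salt-inducible kinases such as Sik1 hold back in the cytoplasm.

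Values are on the scale of log2(RPKM + 1), where RPKM is reads per kilobase of gene, scaled to library size. A log2 fold change is the MA mean minus the Control mean on that scale, and it understates the change of genes with low levels. RPKM values below are back-transformed from the deposited values. No read totals were given with the values, and the depth of the libraries is unknown. All 6 libraries shared 1 highest value and had nearly the same median over the tested genes, from 3.26 to 3.27. MA replicate 3 stood apart, with a mean Pearson correlation across genes of 0.978 with the other MA libraries against 0.984 to 0.993 for the other 5 libraries within their groups, and it carried the lowest sample weight in limma (0.194, against 0.937 to 2.45). Markers of excitatory hippocampal neurons were present in every library, with a summed level of 7 markers of 879 to 961 RPKM in Control and 827 to 980 RPKM in MA. Most of this sum was Slc17a7 (545 to 666 RPKM), and 6 of the 7 had a lower mean in MA. Neurod6 (66.5 to 88.9 RPKM in Control, 52.5 to 61.5 RPKM in MA) and Wfs1 (34.6 to 41.0 RPKM in Control, 27.1 to 33.5 RPKM in MA) lay below the Control libraries in each MA library, and 0 of the 7 were called (limma). Of the other brain cell lists, 1 of 6 astrocyte markers (Aqp4) and 1 of 5 microglia markers (Tmem119) also lay below the Control libraries in each MA library. Of 5 GABAergic neuron and 6 oligodendrocyte markers, 0 did, and 1 of 6 thalamus markers (Lhx9) lay above. Markers of other tissue moved with the groups too. The summed level of 7 choroid plexus markers was 65.6 to 421 RPKM in Control and 1777 to 5079 RPKM in MA, and 4 of the 7 were called higher. The summed level of 5 blood markers was 1599 to 2024 RPKM in Control and 3319 to 4378 RPKM in MA, and 3 of the 5 were called higher. Of all tested genes, 0.165% were called higher in MA, and 10.2% had all MA libraries below all Control libraries. In whole tissue, fewer cells of a type and less RNA per cell cannot be told apart.

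Promoter sequence was available from RefSeq (GRCm38.p6, a window from 250 bases before to 50 bases after the start) for 5 of the 10 genes: Camk2b, Camk2d, Camk1, Creb1 and Crtc1. The windows were searched on both strands for the full CRE, TGACGTCA, and for its core, TGACG, which the full CRE contains. None of the 5 windows held the full CRE and 1, that of Camk1, held the core. Of all 32851 promoter windows, 1.79% held the full CRE and 20.8% the core. The stretch of the Creb1 window that lies before any annotated exon (chr1:64532554-64532644, plus strand) and that of Camk1 (chr6:113343985-113344172, minus strand) are shown because they set a kinase beside the factor that the pathway ends on, with the core in capitals.
Creb1: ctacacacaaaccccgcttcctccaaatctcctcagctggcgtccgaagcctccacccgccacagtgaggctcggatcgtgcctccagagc
Camk1: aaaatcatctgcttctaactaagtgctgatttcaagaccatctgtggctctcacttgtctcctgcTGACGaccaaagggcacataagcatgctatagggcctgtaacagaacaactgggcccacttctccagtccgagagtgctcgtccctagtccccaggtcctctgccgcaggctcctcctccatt

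The 10 genes covered a wide range of levels. By mean RPKM over the 6 libraries, which is per length and so can be compared between genes, the order was Camk2a (686), Camk2b (341), Camk2g (40.9), Crtc1 (34.7), Camk1 (27.8), Crem (16.5), Camk2d (9.78), Camk4 (7.70), Creb1 (5.16) and Sik1 (2.59). Of the 9 pairs of neighbours in this order, 5 had ranges over the libraries that overlapped. Camk2a stood above Camk2b, Camk2b above Camk2g, Camk1 above Crem, and Creb1 above Sik1 in every library. The messages of the alpha and beta subunits of CaMKII were thus far more abundant per length than that of the transcription factor CREB in all 6 libraries.

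None of the 6 kinases was called different between MA and Control, where a call needs a limma p-value under 0.05 after Benjamini-Hochberg adjustment over the 13321 genes. Of all tested genes, 0.263% were called, 0.165% higher and 0.0976% lower in MA. The groups overlapped for all 6 kinases, whereas 17.5% of the tested genes had groups that did not overlap, 7.32% with the MA libraries higher. Without adjustment, 0 of the 6 had p under 0.05, against 10.4% of all tested genes, a share that includes 4.99% with a higher MA mean. The median log2 fold change of the 6 was -0.020, against -0.010 over all tested genes.

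Camk2a (chromosome 18 of GRCm38, 60925618 to 60988152), which encodes the alpha subunit of CaMKII, was at 666, 608 and 711 RPKM in Control replicates 1, 2 and 3 and at 769, 876 and 484 RPKM in MA replicates 1, 2 and 3. The highest and the lowest of the 6 values both lay in the MA group. Its log2 fold change was 0.059 (95% confidence interval -0.42 to 0.54, limma adjusted p = 0.950), and without MA replicate 3 it was 0.31.

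Camk2b (chromosome 11, 5969644 to 6066362), the beta subunit, which binds actin in spines, was at 407, 334 and 319 RPKM in the Control libraries and at 292, 352 and 344 RPKM in the MA libraries. MA was lower by a log2 fold change of -0.097 (95% confidence interval -0.37 to 0.18, limma adjusted p = 0.838). The MA values fell within or just under the Control range. Camk2g (chromosome 14, 20734875 to 20794088), the gamma subunit, was at 36.8, 40.0 and 48.3 RPKM in Control and at 45.2, 38.1 and 37.3 RPKM in MA, with a log2 fold change of -0.049 (95% confidence interval -0.34 to 0.24). All 3 MA values of Camk2g lay within the Control range.

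Camk4 (chromosome 18, 32934931 to 33191228), the nuclear CREB kinase, was at 7.72, 8.17 and 8.05 RPKM in Control and at 7.86, 8.06 and 6.37 RPKM in MA. The SD of the 3 Control libraries was 0.037 on the log2 scale, and 2 of the 3 MA libraries lay inside their range, with MA replicate 3 below it. Its log2 fold change of -0.097 (95% confidence interval -0.35 to 0.16, limma adjusted p = 0.819) became -0.0031 without MA replicate 3. Camk1 (chromosome 6, 113334124 to 113343984), a cytoplasmic relative that acts in axon and dendrite growth, was at 21.7, 29.2 and 32.9 RPKM in Control and at 29.5, 25.1 and 28.6 RPKM in MA. Its log2 fold change of 0.0082 (95% confidence interval -0.35 to 0.37, limma adjusted p = 0.993) was far under the spread of the Control libraries, whose SD was 0.30 on the log2 scale. The exons of Camk4 and Camk1 overlap those of a gene on the other strand, by 72 bases (2310026I22Rik) and by 232 bases (Ogg1), and whether the counting used strand is not given in the sources used here.

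**Figure D1:**
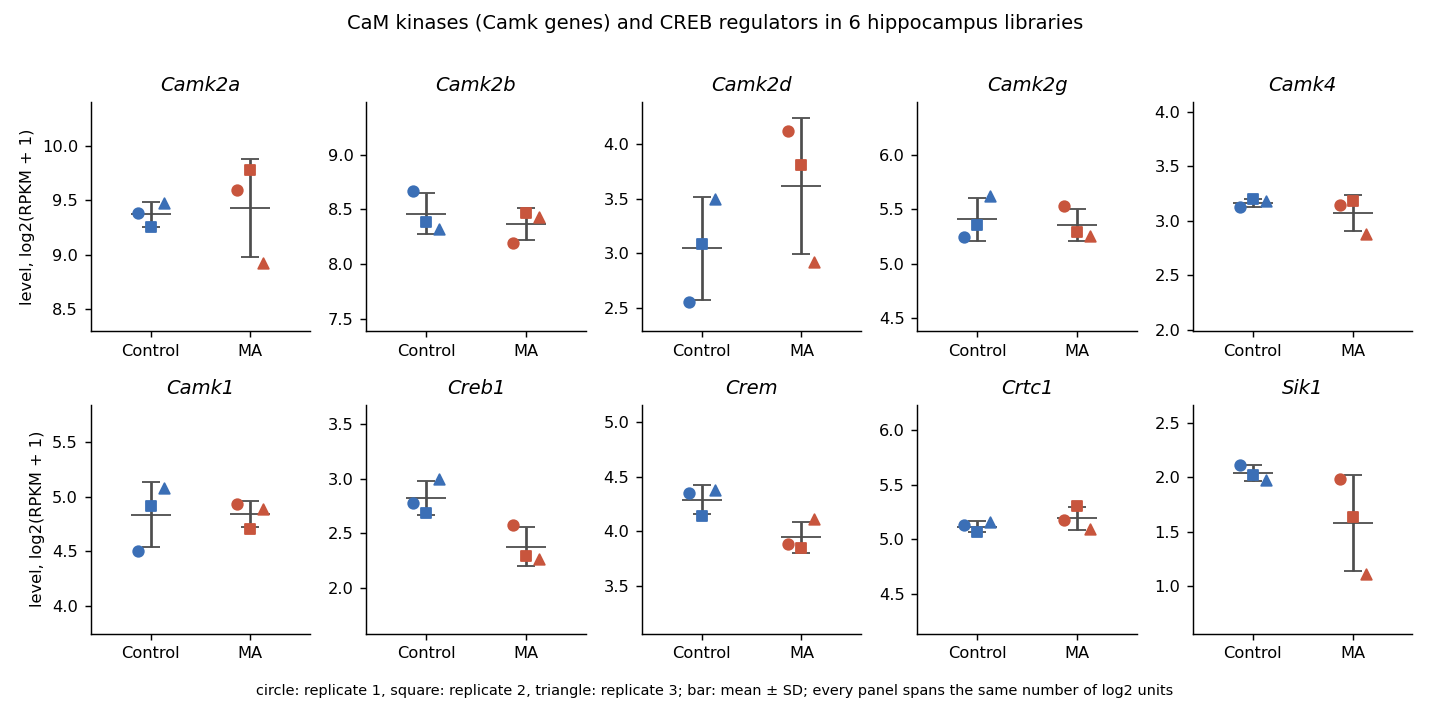
Level of each of the 10 genes, log2(RPKM + 1) on the vertical axis, in the 3 Control (blue) and 3 MA (red) libraries, with the mean and SD of each group; each panel spans the same number of log2 units. The MA points of Creb1 and Crem all lie below the Control points, while those of the 6 kinases overlap with them.

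The 4 Camk2 genes together reached 989.6 to 1114 RPKM in the Control libraries and 871 to 1279 RPKM in the MA libraries. Camk2a made up 59.7%, 61.5% and 65.3% of this sum in Control replicates 1 to 3 and 68.5%, 68.5% and 55.5% in MA replicates 1 to 3. Camk2b made up 33.2% ± 3.65 (SD, n = 3) in Control and 31.0% ± 7.36 (SD, n = 3) in MA. These 2 subunits therefore supplied nearly all CaMKII messages per length in each library, and MA replicate 3 had the lowest alpha and the highest beta share of all 6. Camk2g made up 2.98% to 4.44% and Camk2d 0.436% to 1.46% of the sum.

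The balance of Camk2a and Camk2b, a quantity by which CaMKII composition is often described, did not separate the groups. The log2 value of Camk2a minus that of Camk2b was 0.71, 0.87 and 1.16 in the Control libraries and 1.39, 1.31 and 0.49 in the MA libraries. MA replicates 1 and 2 had the highest balance toward alpha and MA replicate 3 the lowest. The difference between the group means was 0.16 (exact permutation test, two-sided, p = 0.7, where the smallest p that 3 libraries against 3 allow is 0.1), and it was -0.0084 without MA replicate 1 and 0.44 without MA replicate 3.

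**Figure D2:**
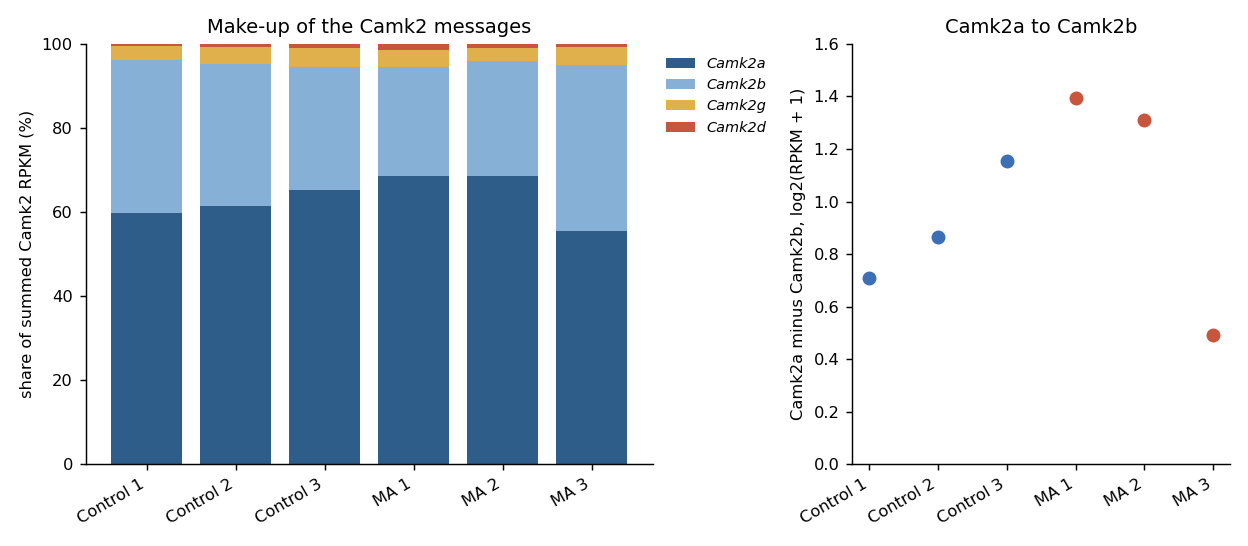
Left, share of the summed RPKM of the 4 Camk2 genes in each library (%); right, log2 level of Camk2a minus that of Camk2b in each library (blue, Control; red, MA). MA replicate 3 has the smallest Camk2a share, 55.5%, and the smallest difference, 0.49.

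Camk2d (chromosome 3, 126596302 to 126846326), the delta subunit, best known from heart and also made in parts of the brain, was the kinase that varied most. It was at 4.86, 7.52 and 10.3 RPKM in Control replicates 1, 2 and 3 and at 16.4, 13.0 and 6.56 RPKM in MA replicates 1, 2 and 3, a range of 3.38-fold over the 6 libraries. MA replicates 1 and 2 lay above all Control libraries, while MA replicate 3 lay below 2 of them. On the log2 scale the MA mean exceeded the Control mean by 0.57 (95% confidence interval -0.23 to 1.37, limma adjusted p = 0.624). This difference was 0.92 without MA replicate 3 (limma adjusted p = 0.111) and 0.32 without MA replicate 1 or without Control replicate 1.

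Markers of the thalamus, which lies under the hippocampus, were highest in the same 2 libraries as Camk2d. The summed level of 6 thalamus markers was 29.5, 23.8 and 29.4 RPKM in Control replicates 1, 2 and 3 and 50.6, 61.5 and 22.9 RPKM in MA replicates 1, 2 and 3. Tcf7l2, a transcription factor of thalamic neurons, was at 2.16, 1.21 and 4.38 RPKM in Control and at 8.27, 7.46 and 2.20 RPKM in MA. MA replicates 1 and 2 were the 2 highest libraries for Camk2d, for the marker sum and for Tcf7l2. All 6 thalamus markers had a higher mean in MA, 0 of the 6 were called at an adjusted p-value under 0.05 (limma), and 0 of the 6 had an unadjusted p under 0.05. The summed level of 6 astrocyte markers had the same 2 libraries highest. It was 473 to 501 RPKM in Control and 557, 590 and 369 RPKM in MA replicates 1, 2 and 3. Within this list Slc1a2 and Slc1a3 followed that order. Gfap, Aqp4 and Aldh1l1 were highest in a Control library, and Gjb6 was highest in MA replicate 2 and next in Control replicate 2. The order of the sums was thus not particular to the thalamus markers, but most single astrocyte markers did not share it. The choroid plexus sum was highest in MA replicate 3 at 5079 RPKM, of which Ttr made 5033 RPKM. Kcnj13, Otx2 and Aqp1 of that list were also highest in MA replicate 3, while Folr1, Clic6 and Kl were highest in MA replicate 2. The part of these cells and tissues in the Camk2d values was not tested.

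**Figure D3:**
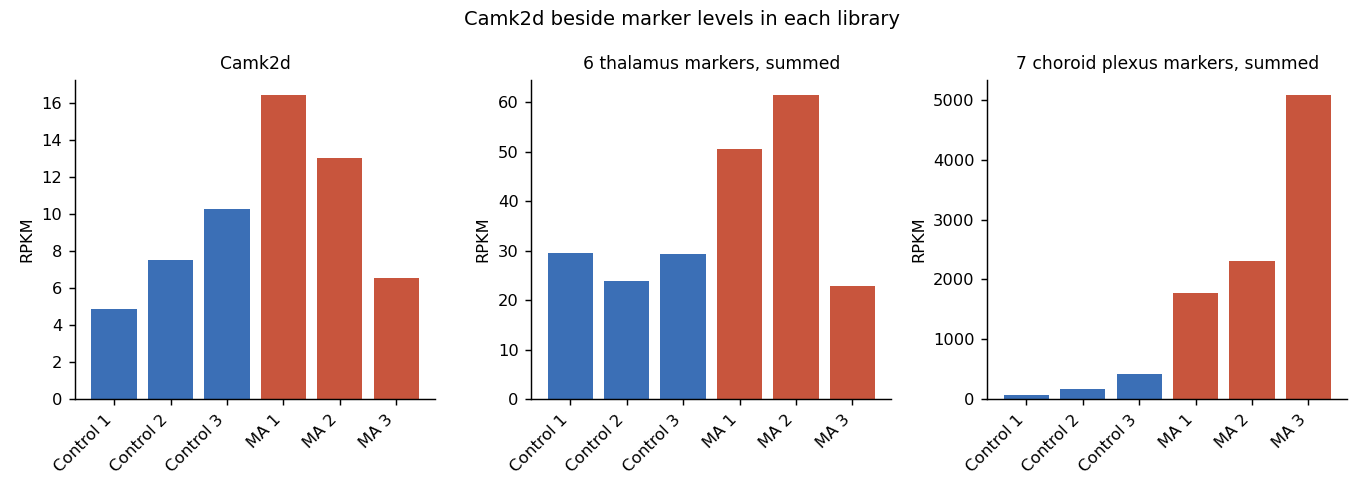
Level in RPKM (vertical axes, from 0) of Camk2d, of 6 thalamus markers summed and of 7 choroid plexus markers summed, in each Control (blue) and MA (red) library. Camk2d and the thalamus sum are highest in MA replicates 1 and 2, and the choroid plexus sum is highest in MA replicate 3.

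Among the 4 CREB regulators, Creb1 and Crem were lower in each MA library than in each Control library, Sik1 was lower on average with overlapping groups, and Crtc1 differed little. None of the 4 was called after adjustment (limma, 13321 genes), and 2 of the 4, Creb1 and Crem, had an unadjusted p under 0.05. Over all tested genes, 10.2% had groups that did not overlap with the MA libraries lower, and 5.46% had an unadjusted p under 0.05 and a lower MA mean. Among the 10 genes these counts were 2 and 2.

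Creb1 (chromosome 1, 64532645 to 64604548) encodes CREB itself, the factor whose phosphorylation by CaMKIV and other kinases recruits coactivators. It was at 5.87, 5.44 and 6.97 RPKM in Control replicates 1, 2 and 3 and at 4.97, 3.90 and 3.79 RPKM in MA replicates 1, 2 and 3. The groups did not overlap, and MA replicate 1 came closest to the Control libraries. The group means on the log2 scale were 2.82 ± 0.16 and 2.38 ± 0.18 (SD, n = 3 each). MA lay below Control by a log2 fold change of -0.44 (standard error 0.13; 95% confidence interval -0.75 to -0.14, limma adjusted p = 0.323), and the exact permutation test gave its smallest possible p of 0.1 (two-sided). The value of RPKM + 1 in MA was 73.5% of that in Control. It ranged from -0.54 to -0.36 when single libraries were left out. The limma adjusted p over all 15 alternatives ranged from 0.0724 to 0.735. The Creb1 promoter window, part of which is shown above, holds no CRE core.

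Crem (chromosome 18, 3266048 to 3337748) encodes a relative of CREB that includes activating forms and the inducible repressor ICER, made from a promoter inside the gene that CREB drives. A single value per gene cannot separate these forms. Crem was at 19.4, 16.6 and 19.8 RPKM in Control and at 13.8, 13.4 and 16.3 RPKM in MA. The groups did not overlap, but Control replicate 2 and MA replicate 3 lay close to each other. The log2 fold change was -0.34 (standard error 0.11, 95% confidence interval -0.60 to -0.08, limma adjusted p = 0.350), with an exact permutation p of 0.1 (two-sided). The range with single libraries left out was -0.43 to -0.29. Crem was the only one of the 10 genes called under any alternative, with a limma adjusted p of 0.0488 under sample quality weights, which give MA replicate 3 little influence. With those weights 586 of the 13321 tested genes were called, 273 of them lower in MA, against 35 without them. The limma adjusted p over all alternatives ranged from 0.0488 to 0.790. Its exons overlap Gm6225 on the other strand by 472 bases.

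Sik1 (chromosome 17, 31844250 to 31855804) encodes the salt-inducible kinase that is itself induced by CREB and phosphorylates the Crtc coactivators. It was the least abundant of the 10 genes, at 3.33, 3.05 and 2.94 RPKM in Control and at 2.96, 2.10 and 1.16 RPKM in MA. The Control libraries were close together, with an SD of 0.070 on the log2 scale, whereas the MA libraries were spread with an SD of 0.44. MA replicate 1 lay within the Control range and MA replicates 2 and 3 lay below it. The mean difference on the log2 scale was -0.46 (standard error 0.21, 95% confidence interval -0.95 to 0.031, limma adjusted p = 0.507), and it was -0.23 without MA replicate 3 and -0.66 without MA replicate 1.

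Crtc1 (chromosome 8, 70382355 to 70439579), the neuronal coactivator that moves from synapse to nucleus with activity, was at 33.9, 32.4 and 34.8 RPKM in Control and at 35.2, 38.5 and 33.2 RPKM in MA. It had the narrowest range of the 10 genes, 1.19-fold over the 6 libraries. The log2 fold change was 0.075 (95% confidence interval -0.12 to 0.27, limma adjusted p = 0.823).

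**Figure D4:**
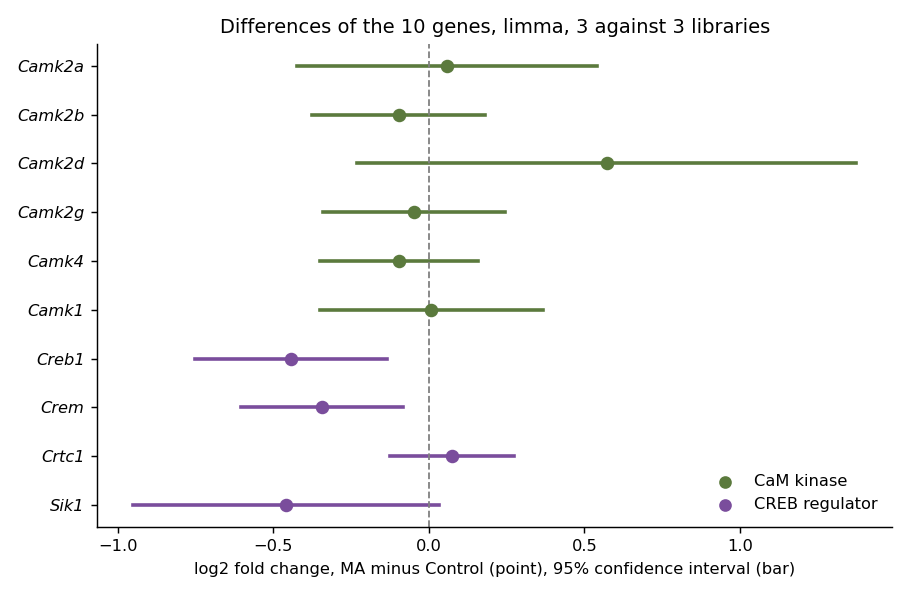
Log2 fold change of each gene, MA minus Control, from limma (point) with its 95% confidence interval (bar); green, CaM kinases; purple, CREB regulators. The intervals of Creb1 (-0.75 to -0.14) and Crem (-0.60 to -0.08) lie below 0, and none of the 10 genes passes the adjusted threshold.

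Set side by side, the 6 kinases had a median log2 fold change of -0.020 and the 4 CREB regulators one of -0.39, against -0.010 over all tested genes. The kinases ranged from -0.097 to 0.57 and the regulators from -0.46 to 0.075, so the 2 ranges overlap through Crtc1. When single libraries were left out, the kinase median stayed between -0.064 and 0.086 and the regulator median between -0.44 and -0.31. These medians describe genes chosen with results known and carry no test. Choroid plexus and blood markers were higher in each MA library. Neurod6 and Wfs1 (2 of 7 excitatory neuron markers), Aqp4 (1 of 6 astrocyte) and Tmem119 (1 of 5 microglia) were lower in each. Of 5 GABAergic neuron and 6 oligodendrocyte markers 0 were, against 10.2% of all tested genes. The markers named here moved with the same groups as Creb1 and Crem, and the part of these cells in those differences was not tested.

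The genes whose profile over the 6 libraries came closest to that of Creb1, the member with the smallest p, were Pou3f4, Fabp7, Cdkn2aip, Idi1 and Carnmt1. Likeness was the root mean square difference of the log2 values after each gene was centred on its own mean, and it was 0.058 for Pou3f4, 0.058 for Fabp7, 0.060 for Cdkn2aip, 0.071 for Idi1 and 0.077 for Carnmt1. Fabp7, a fatty acid binding protein of astrocytes and neural progenitors, was the most abundant of the 5. Its log2 values were 5.33, 5.20 and 5.42 in Control and 5.09, 4.89 and 4.86 in MA. None of the 5 passed the adjusted threshold, with limma adjusted p-values from 0.264 to 0.402.

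Around the kinases, 19 partner genes were examined as a list. They were those for calmodulin, its buffers, the CaM kinase kinases and phosphatases, and calcineurin, with further CaM kinase genes and relatives (Camk1d, Camk1g, Pnck, Camkv, Camk2n1 and Camk2n2). All 19 were tested and 0 were called in either direction (limma), against 0.263% of all tested genes. Without adjustment 4 had p under 0.05, of which 2 were higher and 2 lower in MA, against 4.99% and 5.46% of all tested genes. The groups did not overlap for 2 genes higher and 1 gene lower in MA, against 7.32% and 10.2% of all tested genes. Their median log2 fold change was -0.070. Calm3, a calmodulin gene, and Nrgn, which encodes the calmodulin buffer neurogranin, were the most abundant, with 2439 and 1759 RPKM on average in Control and 2370 and 1618 RPKM in MA. The log2 fold change was -0.069 for Calm3 and -0.12 for Nrgn, with limma adjusted p-values of 0.937 and 0.654. Calm3 turned to 0.15 without MA replicate 3. Pnck, a CaM kinase of the CaMKI group, had the smallest p of the list, with log2 values of 5.71, 5.70 and 5.97 in Control and 6.07, 6.08 and 6.01 in MA. All 3 MA libraries lay above the Control libraries, by 0.26 on the log2 scale (standard error 0.095; limma adjusted p = 0.417). Ppp3ca, the catalytic subunit of calcineurin, the calcium-activated phosphatase that opposes CaMKII, was at 9.41, 9.13 and 9.24 in Control and at 8.85, 9.16 and 8.85 in MA on the log2 scale, with overlapping groups (log2 fold change -0.31, limma adjusted p = 0.420).

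On the CREB side, 14 further genes of the CREB family, its coactivators and the other kinases that phosphorylate it or hold it back were tested. None was called and 0 had an unadjusted p under 0.05 (limma), against 0.263% and 10.4% of all tested genes. In 1 of the 14 all MA libraries lay above the Control libraries, against 7.32% of all tested genes. The median log2 fold change of the 14 was 0.034. Prkaca and Prkacb, the catalytic subunits of protein kinase A, the classical CREB kinase, were the most abundant. Prkaca was at 94.5 RPKM on average in Control and 91.7 RPKM in MA, and Prkacb at 46.1 and 53.8 RPKM. Rps6ka4 and Rps6ka3, kinases of the RSK and MSK family downstream of ERK, had the smallest p-values of the list, with log2 fold changes of 0.22 and -0.27 and limma adjusted p-values of 0.586 and 0.598. Rps6ka4 shares exonic bases with other annotated genes on its strand. The close relatives of the 4 regulators (Atf1, Crtc2, Crtc3, Sik2 and Sik3) were in this list and were not called.

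CREB target genes were the list of this pathway that held called genes. Of 20 such genes, all tested, 6 were called lower in MA and 0 higher (limma adjusted p under 0.05), where 0.0976% of all tested genes were called lower. Their median log2 fold change was -0.67, 19 of the 20 had a lower mean in MA, and 15 of the 20 had MA libraries that all lay below all Control libraries, against 10.2% of all tested genes. As for all genes here, lower in MA means lower in the libraries labelled MA. The list was written with earlier results of these libraries known and includes genes that the study itself picked from them, so its count is not independent evidence of direction. The 6 genes called lower were Arc, Fos, Nr4a1, Fosb, Junb and Gadd45b, all known to be induced rapidly by neuronal activity. The paper names these 6 genes among those upregulated in MA-treated mice, and reports higher Fos, Arc and Nr4a1 with MA by qPCR. The direction in the labelled libraries is the opposite, and why was not tested. The other 14 genes of the list were not called. Without Control replicate 2, Control replicate 3 or MA replicate 2, the count of called genes was 0, and it was 1 without Control replicate 1 and 8 without MA replicate 3.

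Arc, which encodes a postsynaptic regulator of AMPA receptors, had log2 values of 6.67, 6.23 and 6.22 in Control and 4.77, 4.40 and 4.54 in MA, with no overlap. Its mean was 82.8 RPKM in the libraries labelled Control and 22.9 RPKM in those labelled MA, and that of Fos, a subunit of the AP-1 factor, was 15.1 and 4.26 RPKM. The mean RPKM of Nr4a1, an orphan nuclear receptor, was 39.4 in Control and 13.6 in MA. That of Junb was 75.3 and 30.4, that of Fosb 7.33 and 2.33, and that of Gadd45b 22.6 and 11.5. The log2 fold changes of the 6 lay between -1.80 for Arc (standard error 0.15; limma adjusted p = 0.0181) and -0.90 for Gadd45b (standard error 0.10; limma adjusted p = 0.0315). In all 6 the groups did not overlap. Choroid plexus and blood markers moved with the same groups. Neurod6 and Wfs1 (2 of 7 excitatory neuron markers), Aqp4 (1 of 6 astrocyte) and Tmem119 (1 of 5 microglia) lay below Control in each MA library. Of 5 GABAergic neuron and 6 oligodendrocyte markers 0 did, against 10.2% of all tested genes. The part of these cells in these differences was not tested. Junb shares 173 exonic bases with Prdx2 on the other strand. Sst, the somatostatin gene of interneurons, and Vgf, a secreted neuropeptide precursor, which were the most abundant genes of the list, had log2 fold changes of -0.11 and -0.19 (limma adjusted p = 0.733 and 0.578).

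**Figure D5:**
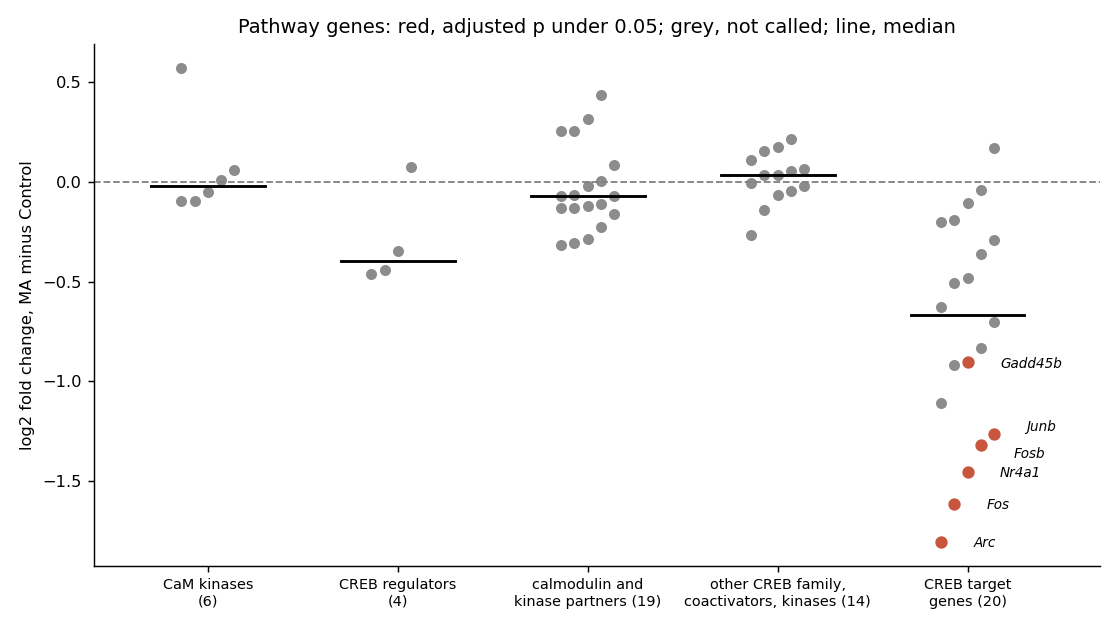
Log2 fold change, MA minus Control, of each gene in 5 lists (horizontal axis); red, adjusted p under 0.05 in limma; grey, not called; line, median of the list. Of the 5 lists, the CREB target genes hold the called genes, 6 of 20, all below 0, while the medians are -0.020 for the kinases and -0.39 for the CREB regulators.

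Promoter windows were found for 16 of the 20 CREB target genes, 24 windows in all, of which 58.3% held the CRE core and 12.5% the full CRE, against 20.8% and 1.79% of all windows. The list was made of known CREB targets, so this share describes the list. The CRE nearest the start is shown for 4 genes that were called lower and hold a core, and for the 3 genes with a full CRE, with the core or full CRE in capitals and its flanks in lower case. In Nr4a1 the core lies on the other strand and reads CGTCA.
Fos: gttccgcccagTGACGtaggaagtcca
Fosb: ggagttgcgggTGACGcaagcgcgggg
Junb: cttcctgacagTGACGcgagccgcctc
Nr4a1: ccctctccatgCGTCAcggagcgctta
Dusp1: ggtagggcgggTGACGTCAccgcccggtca
Sst: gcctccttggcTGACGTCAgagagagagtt
Scg2: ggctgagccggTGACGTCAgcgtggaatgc

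These stretches lie at chr12:85473813-85473839 (Fos, plus strand), chr7:19310090-19310116 (Fosb, minus), chr8:84978839-84978865 (Junb, minus), chr15:101266795-101266821 (Nr4a1, plus), chr17:26508597-26508626 (Dusp1, minus), chr16:23890874-23890903 (Sst, minus) and chr1:79440076-79440105 (Scg2, minus). The element begins 66 bases before the start in Fos, 60 in Fosb, 106 in Junb, 40 in Nr4a1, 143 in Dusp1, 48 in Sst and 68 in Scg2. All 30 bases shown for Sst and for Scg2 lie within exons of GENCODE M21, which places the start of these genes further upstream than the RefSeq entry does. Of the 3 genes that hold a full CRE, Dusp1, a phosphatase that switches off MAP kinases, had MA libraries all below the Control libraries (log2 fold change -0.70, limma adjusted p = 0.264). The paper lists Dusp1 too among the genes upregulated with MA, which is the opposite direction, and why was not tested. Sst had a log2 fold change of -0.11, and Scg2, a secretogranin of dense-core vesicles, one of -0.040 (limma adjusted p = 0.956). Gadd45b, which was called lower, held no core in its window, and Arc was not among the genes with a window.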

How the data were processed

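Hippocampal RNA of 3 Control and 3 MA mice was sequenced. In the paper's methods, the authors aligned reads with Hisat2, counted them with featureCounts and computed FPKM. The submitters' processing notes list Bowtie 0.12.2 and the builds mm8 and mm9, with no role given. The deposited table, named as RPKM, holds values on a log scale, read as log2 with an offset of 1 from the lowest value of 0. All libraries share 1 highest value and nearly the same median, as after a normalization to a common distribution, but differ at the low end, where MA replicate 3 has 0 genes at 0 and the others 259 to 437. The step is not given in the sources used here. RPKM in the text is 2 to the power of the deposited log2 value, minus 1. Depth is unknown, and no batch is given. The limma p-values set a difference of group means against the spread between these 3 libraries per group. That spread is drawn toward the spread of other genes at a similar level.

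Genes with at least 0.5 RPKM in at least 3 libraries (13321) were tested with limma 3.58.1 in R 4.3.3 (lmFit, eBayes with a trend), MA against Control, with no covariate and Benjamini-Hochberg adjustment; a gene was called at an adjusted p under 0.05. The study's DESeq2 needs counts, which the table does not hold. The fit was tested on simulated data whose changes were larger than any seen in the 10 genes. That test does not cover smaller changes. Single values were also compared by permuting the libraries exactly, two-sided (scipy 1.17.1). The genes, lists and tests were chosen with earlier results of these data known. Named genes were the 10 members, and from each other list those called, the 2 most abundant and the 2 with the smallest p, plus the 5 closest in profile to the member with the smallest p; Dusp1, Scg2, the single marker genes and the CREB relatives were named beyond this rule, after their values were seen. GENCODE M21 (GRCm38) gave gene positions, for location only. Alternatives were pseudocounts of 0.1 and 0.01, no filter, a minimum mean of 5 RPKM, median centring, quantile normalization, no trend, sample weights, a replicate block and leaving out each library.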

Additional observations from a re-analysis of the deposited data

How the results depend on the processing

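Of the 10 CaM kinase and CREB genes, 1 call appeared under any alternative, that of Crem with sample quality weights (log2 fold change -0.40). Those weights called 586 of all 13321 tested genes, 273 of them lower in MA. Creb1, Crem, Sik1 and Camk4 stayed lower and Camk2d and Crtc1 higher in MA under all alternatives in which they were tested. Sik1 and Rps6ka3 fell under a minimum mean of 5 RPKM, as did Fosb. Camk1 turned to -0.083 with sample quality weights. Leaving out each library in turn gave log2 fold changes from -0.11 to 0.31 for Camk2a, from -0.17 to 0.0092 for Camk2b, from -0.13 to 0.059 for Camk2g and from -0.16 to 0.13 for Camk1. It gave a Camk2a to Camk2b difference from -0.0084 to 0.44. Among the other named genes it gave -0.18 to 0.15 for Calm3, -0.076 to 0.0074 for Prkaca and -0.025 to 0.47 for Prkacb, and Calm3 was 0.13 with sample quality weights. The causes were not tested.

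Over all genes, 35 were called, and 3 with no filter, 20 with a minimum mean of 5, 586 with sample quality weights and 0 to 257 with each library left out. Of the CREB targets 6 were called, and 1 with no filter, 12 with sample quality weights and 0 to 8 with each library left out. Of the calmodulin and kinase partners 1, Pcp4, which was named after its value was seen, was called with sample quality weights. A replicate block on the library numbers left 15 genes and 3 CREB targets called, lost Fosb, Gadd45b and Junb, and changed no call of the 10 genes. Same-numbered libraries did not deviate together (correlations of -0.197, -0.242 and -0.337 across genes). The labels give no pairing of the mice, and with 3 libraries per group these correlations cannot show whether there was one. The unknown depth limits the least abundant genes, Sik1 first.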
